A study of Mus musculus with 6 samples.

Results

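Neurotrophins are secreted growth factors of the nervous system, and the genes described here are 6 of the 49585 listed for each library: the ligand genes Bdnf and Ntf3, the receptor tyrosine kinase genes Ntrk2 and Ntrk3, the p75 receptor gene Ngfr and the sortilin gene Sort1. They were picked by name, with it already known that Ntrk2 and Bdnf were on in Bcat1-knockout cells and off in control cells. Their own contrast between the groups is therefore described and not tested, and only neighbouring and related genes are tested. The lists of related genes were also chosen with earlier results of these data known, so the shares called in them are descriptive. RNA came from mGB2, a mouse cell line labelled as glioblastoma stem cells, in 3 Bcat1-KO libraries and 3 control libraries of untreated cells. Bcat1 encodes the cytosolic branched-chain amino acid aminotransferase. All cells grew attached to an extracellular matrix coating in DMEM:F12 with N2, B27, EGF and FGF. The labels say neither how many clones the knockout represents nor whether the replicates were separate cultures, so p-values measure the spread between these libraries, which can be technical.

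A neurotrophin is made as a longer proneurotrophin and is cut by proprotein convertases to its mature form. Mature BDNF acts through TrkB, the product of Ntrk2, and mature neurotrophin-3 mainly through TrkC, the product of Ntrk3, both of which signal to ERK, PI3K and phospholipase C gamma. The p75 receptor binds all mature neurotrophins weakly, and together with sortilin it binds the proforms, for which it is known as a death receptor in neurons. In the brain, neurons express kinase-bearing TrkB, and astrocytes mostly a truncated TrkB without the kinase.

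The knockout libraries held 35608024 to 37800648 gene counts and the control libraries 29543157 to 33550412. Bcat1 itself was still transcribed, at 155 to 176 CPM (a gene's share of all counts in a library, TMM scaled) in the knockout, against 214 to 232 CPM in the control, and gene-level counts cannot tell which of its exons were transcribed. The 8 stem cell markers looked at had summed levels of 2243 to 2446 CPM in the knockout, against 1481 to 1547 CPM in the control. At an adjusted p under 0.05 (edgeR) 6 were higher and 0 lower, and Nes and Msi1 overlapped between groups. Prom1 was low in both groups, at 0.829 ± 0.0248 CPM in the knockout (SD, n = 3) and 0 in the 3 control libraries. Of 8 microglia and macrophage markers, 7 had means under 0.1 CPM. In each group replicate 1 stood furthest from the others: the chi-square per gene between libraries was 31.4 and 33.2 for knockout replicate 1, against 12.6 between the other two, and up to 12.8 for control replicate 1, against 4.01 between the other two.

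The transcription start regions of Ntrk2, of Bdnf and of Ngfr are shown because the first 2 genes had 9 control reads or fewer in all and the last lay in the other direction. RefSeq start windows (GRCm38.p6, the assembly also called mm10), of 250 bases before and 50 after a start, were found for 4 of the 6 genes, with 7 windows for Bdnf alone, since Bdnf has many promoters that each feed a separate first exon into a common coding exon. Below, capitals mark the GC box GGGCGG and the half-site of the cAMP response element, TGACG, each on either strand, and each window is given 5′ to 3′ on the strand of its gene. The Bdnf windows shown are that of the outermost start and the one that holds the half-site.
Ntrk2, chr13:58806319-58806618, plus strand: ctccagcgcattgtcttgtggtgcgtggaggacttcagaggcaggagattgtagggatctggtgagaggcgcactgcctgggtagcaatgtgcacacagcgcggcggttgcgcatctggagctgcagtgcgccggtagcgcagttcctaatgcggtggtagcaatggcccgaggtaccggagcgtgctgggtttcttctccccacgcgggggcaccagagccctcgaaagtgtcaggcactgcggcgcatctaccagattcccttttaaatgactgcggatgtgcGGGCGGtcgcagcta
Bdnf, chr2:109674450-109674749, plus strand: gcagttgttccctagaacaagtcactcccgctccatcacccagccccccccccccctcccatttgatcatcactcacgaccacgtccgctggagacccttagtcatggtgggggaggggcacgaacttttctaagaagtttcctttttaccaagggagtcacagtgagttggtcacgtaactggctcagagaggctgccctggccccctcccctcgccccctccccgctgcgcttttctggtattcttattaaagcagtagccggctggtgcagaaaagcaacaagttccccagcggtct
Bdnf, chr2:109692186-109692485, plus strand: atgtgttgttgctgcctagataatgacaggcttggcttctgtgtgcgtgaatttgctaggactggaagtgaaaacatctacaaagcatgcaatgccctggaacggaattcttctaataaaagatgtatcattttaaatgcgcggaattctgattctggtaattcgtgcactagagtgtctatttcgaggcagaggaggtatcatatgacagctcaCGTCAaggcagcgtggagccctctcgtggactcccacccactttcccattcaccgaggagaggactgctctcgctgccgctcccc
Ngfr, chr11:95587649-95587948, minus strand: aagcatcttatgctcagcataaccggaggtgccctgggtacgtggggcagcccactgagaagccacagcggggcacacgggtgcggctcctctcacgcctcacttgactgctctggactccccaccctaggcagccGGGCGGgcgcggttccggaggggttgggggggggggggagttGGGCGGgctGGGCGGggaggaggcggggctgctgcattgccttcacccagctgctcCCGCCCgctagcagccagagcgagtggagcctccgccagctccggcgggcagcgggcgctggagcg
The half-site stood in 1 of the 7 Bdnf windows, 35 bases before the start, and in none of the windows of Ntrk2, Ngfr and Ntf3, while 20.8% of all 32851 windows hold it. The full element TGACGTCA, found in 1.79% of all windows, was in none of the 11 windows of the 4 genes. A further motif searched, the E-box CACGTG, stood in 1 of the Ntf3 windows, which are not shown, and in 7.15% of all windows. The Ngfr window held 4 GC boxes and the Ntrk2 window 1, in a setting where 35.7% of all windows hold at least 1. Both windows held 23 CG dinucleotides, against a median of 7 over all windows, and the Bdnf windows shown held 11 and 12. Counts over a whole gene do not show which Bdnf start was used, and a match of letters is not a binding site.

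Bdnf (ENSMUSG00000048482.14, protein coding, chromosome 2 from 109674700 to 109727007, plus strand, mm10) encodes brain-derived neurotrophic factor. It had 192, 295 and 339 reads in the knockout libraries, against 6, 2 and 1 reads in the control libraries. That is 5.32, 7.67 and 9.33 CPM in knockout libraries, against 0.191, 0.0603 and 0.0344 CPM in control libraries. Every knockout library stood above every control library, and the control libraries were at or below the level of a few reads. Summed over libraries and corrected for depth, the ratio of knockout to control was 77.5, with an exact 95% interval of 40.6 to 170 that covers counting error only. Control replicate 1 held 6 of the 9 control reads, and without it the ratio was 155. The knockout libraries differed among themselves: the exact Poisson 95% interval of replicate 1 was 4.59 to 6.13 CPM, below those of replicate 2 (6.82 to 8.59 CPM) and replicate 3 (8.36 to 10.4 CPM). Relative to the mean, the SD of the knockout libraries was 27.1%. In bulk RNA, fewer cells that express a gene and less RNA of it per cell cannot be told apart, here and for the genes below.

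Ntf3 (ENSMUSG00000049107.13, chromosome 6 from 126101412 to 126166910, minus strand), which encodes neurotrophin-3, had 0 reads in all 6 libraries. A count of 0 allows up to 0.0780 to 0.0831 CPM in a knockout library and 0.0904 to 0.103 CPM in a control library, taking 3 reads as the limit. The preferred ligand of TrkC was thus not detected at this depth in either group.

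Ntrk2 (ENSMUSG00000055254.14, chromosome 13 from 58806596 to 59133970, plus strand) had 1135, 1263 and 1162 reads in the knockout libraries, against 1, 0 and 2 reads in the control libraries. The knockout libraries stood close together at 31.4, 32.8 and 32.0 CPM, and the control libraries at 0.0318, 0 and 0.0688 CPM. The groups did not overlap, and in the control the gene was at the level of single reads. The ratio of knockout to control was 1002, with an exact 95% interval of 343 to 4863, and it went to 2075 without control replicate 3 and to 647 without control replicate 2. In the knockout the SD was 2.18% of the mean, and the Poisson intervals of the 3 libraries overlapped, so that Ntrk2 lacked the spread seen for Bdnf. GENCODE M21 lists 10 transcripts of the gene, 7 of them protein coding, and the counts are a sum over them, so kinase-bearing and truncated TrkB cannot be told apart.

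Ntrk3 (ENSMUSG00000059146.12, chromosome 7 from 78175959 to 78738012, minus strand), the gene of TrkC, had 458, 634 and 550 reads in the knockout, against 27, 19 and 12 in the control. The levels were 12.7, 16.5 and 15.1 CPM in knockout libraries, against 0.859, 0.572 and 0.413 CPM in control libraries. The groups did not overlap, and each control library held 12 reads or more. The log2 fold change was 4.57 (SE 0.21), and the ratio was 23.9 (exact 95% interval 18.4 to 31.6). Knockout replicate 1 was again the lowest, with an interval of 11.6 to 13.9 CPM that met the lower end of that of replicate 3 (13.9 to 16.5 CPM) but lay below that of replicate 2 (15.2 to 17.8 CPM).

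Ngfr (ENSMUSG00000000120.6, chromosome 11 from 95568818 to 95587735, minus strand) lay in the opposite direction and was scarce. The p75 receptor gene had 7, 11 and 14 reads in the knockout, against 26, 46 and 28 in the control, or 0.194, 0.286 and 0.385 CPM in knockout libraries, against 0.827, 1.39 and 0.964 CPM in control libraries. Every knockout library stood below every control library, by a log2 fold change of -1.87 (SE 0.33) and a ratio of 0.270 (exact 95% interval 0.176 to 0.406). Some Poisson intervals of single libraries overlapped across groups, as for knockout replicate 3 (0.211 to 0.646 CPM) and control replicate 1 (0.540 to 1.21 CPM).

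Sort1 (ENSMUSG00000068747.14, chromosome 3 from 108284082 to 108361511, plus strand) was abundant in both groups. Sortilin, which sorts proteins in the Golgi and endosomes and is the partner of p75 for proneurotrophins, had 292, 270 and 284 CPM in knockout libraries, against 238, 237 and 248 CPM in control libraries. The groups did not overlap but were close, with means of 282 ± 11.2 CPM in the knockout, against 241 ± 6.22 CPM in the control (SD, n = 3 each) and a log2 fold change of 0.22 (SE 0.06). The ratio was 1.17.

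**Figure D1:**
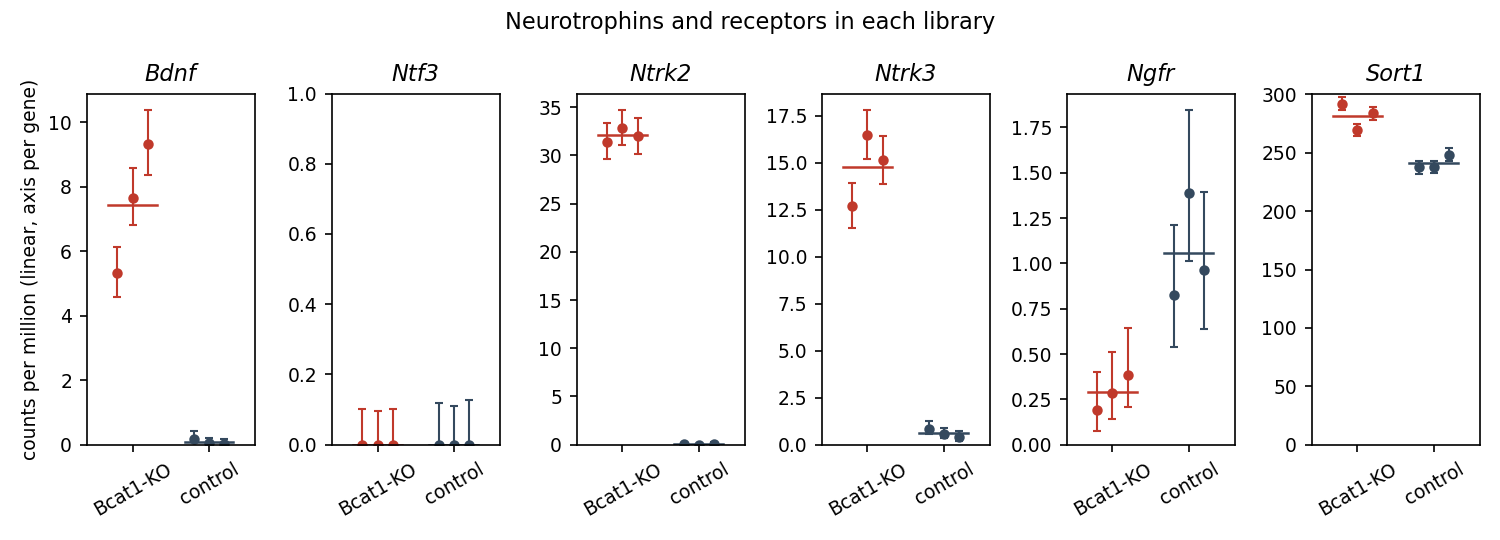
TMM-scaled CPM of each gene in the 3 Bcat1-KO and 3 control libraries, on a linear axis from 0 that differs between genes. Points are libraries with exact Poisson 95% intervals, and lines are group means; Bdnf, Ntrk2, Ntrk3 and Sort1 lie higher and Ngfr lower in the knockout, and Ntf3 is at 0 in all 6 libraries.

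Of the 6 genes, 5 passed the filter on low counts, and Ntf3 did not. The filter's minimum was 0.289 CPM without TMM scaling, so it does not compare directly with the scaled CPM given above. Ntrk2 and Bdnf passed through the knockout libraries alone and Ngfr had only 2 knockout libraries over that minimum, so a difference was built into their passing. All 5 had non-overlapping groups, which 67.7% of the 14020 tested genes also had, and nothing is read from that count since this contrast chose the genes.

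Per unit of exonic length, in the authors' deposited TPM (transcript shares scaled by length), the order in the knockout was Sort1, Ntrk2, Bdnf, Ntrk3, Ngfr and Ntf3. The means were 122 ± 3.12 TPM for Sort1, 7.61 ± 0.293 for Ntrk2, 3.93 ± 1.11 for Bdnf, 1.61 ± 0.236 for Ntrk3 and 0.275 ± 0.0941 for Ngfr (SD, n = 3), and no 2 neighbours in that order overlapped between libraries. In the control the order was Sort1 at 101 ± 2.96 TPM, Ngfr at 0.968 ± 0.257, Ntrk3 at 0.0644 ± 0.0240, Bdnf at 0.0485 ± 0.0430 and Ntrk2 at 0.0077 ± 0.0079 TPM (SD, n = 3), where the libraries of Ntrk3 and Bdnf overlapped. Those of Bdnf (0.0175 to 0.0975 TPM) and Ntrk2 (0 to 0.0158 TPM) did not, at 9 and 3 reads in all. Ntrk2 ranked 9545 among 14020 tested genes by TPM in the knockout, against 13981 in the control. Sort1 ranked 1529 in the knockout, against 1808 in the control, and Ngfr ranked 13484 in the knockout and 12338 in the control. The sum of both Trk genes was 25.2 to 47.9 times the TPM of Ngfr in the knockout libraries and 0.0472 to 0.128 times that of Ngfr in the control libraries, a ratio that rests on 7 to 14 Ngfr reads per knockout library. TPM depends on the deposited exonic length, which is 30170 bases for Ntrk3 and 13806 for Ntrk2.

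Among the related genes that did not pass the filter on low counts, Ntf5, the gene of neurotrophin-4, also a ligand of TrkB, stood at 0.207 ± 0.0145 CPM in the knockout, against 0.323 ± 0.0779 CPM in the control (SD, n = 3 each, here and after each ± sign). The Nogo receptor gene Rtn4r and the sortilin relatives Sorcs3 and Sorl1 were lower still, with means of at most 0.1 CPM: Rtn4r (0.0995 ± 0.0330 CPM in the knockout, against 0.0441 ± 0.0383 in the control), Sorcs3 (0.0173 ± 0.0300 in the knockout, 0.0215 ± 0.0188 in the control) and Sorl1 (0.00866 ± 0.0150 in the knockout, 0.0542 ± 0.0210 in the control).

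Of 13 listed ligands, receptors and co-receptors outside the 6 genes, 7 were tested, and by edgeR's quasi-likelihood fit over all genes 5 were higher and 2 lower in the knockout at a Benjamini-Hochberg adjusted p under 0.05. Among all tested genes 62.3% changed, 32% upward and 30.3% downward. The median log2 fold change of the 7 was 1.68, and over all tested genes 0.01. Sorcs1, a sortilin relative, had 20.8, 29.2 and 30.0 CPM in knockout libraries, against 0.318, 0.362 and 0.654 CPM in control libraries (log2 fold change 5.91, SE 0.23, adjusted p = 1.09e-09, edgeR). Sorcs2, another sortilin relative and a proneurotrophin receptor that partners with p75, had 74.5, 85.4 and 97.9 CPM in knockout libraries, against 10.1, 9.97 and 10.7 CPM in control libraries (log2 fold change 3.07, SE 0.10, adjusted p = 3.08e-10, edgeR).

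Tnfrsf19, the gene of TROY, a relative of p75 that can take its place in the Nogo receptor complex, rose to 48.4 ± 1.63 CPM in the knockout, against 2.40 ± 0.0798 CPM in the control (log2 fold change 4.33, adjusted p = 9.3e-12, edgeR). Lingo1, another subunit of that complex, rose to 35.5 ± 4.59 CPM in the knockout, against 11.1 ± 0.728 CPM in the control (log2 fold change 1.68, adjusted p = 7.34e-08, edgeR). The p75 adaptor gene Bex3 fell to 15.5 ± 0.683 CPM in the knockout, against 146 ± 2.33 CPM in the control (log2 fold change -3.23, adjusted p = 8.6e-12, edgeR), and Nradd, which encodes a death-domain protein like p75, to 15.8 ± 0.716 CPM, against 23.8 ± 0.984 CPM in the control (log2 fold change -0.59, adjusted p = 6.71e-05, edgeR). Kidins220, a membrane substrate of Trk receptors, was 116 ± 4.13 CPM in the knockout, against 102 ± 5.02 CPM in the control (log2 fold change 0.18, adjusted p = 0.0297, edgeR), a call that was lost in 6 of 13 alternatives with adjusted p up to 0.175.

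**Figure D2:**
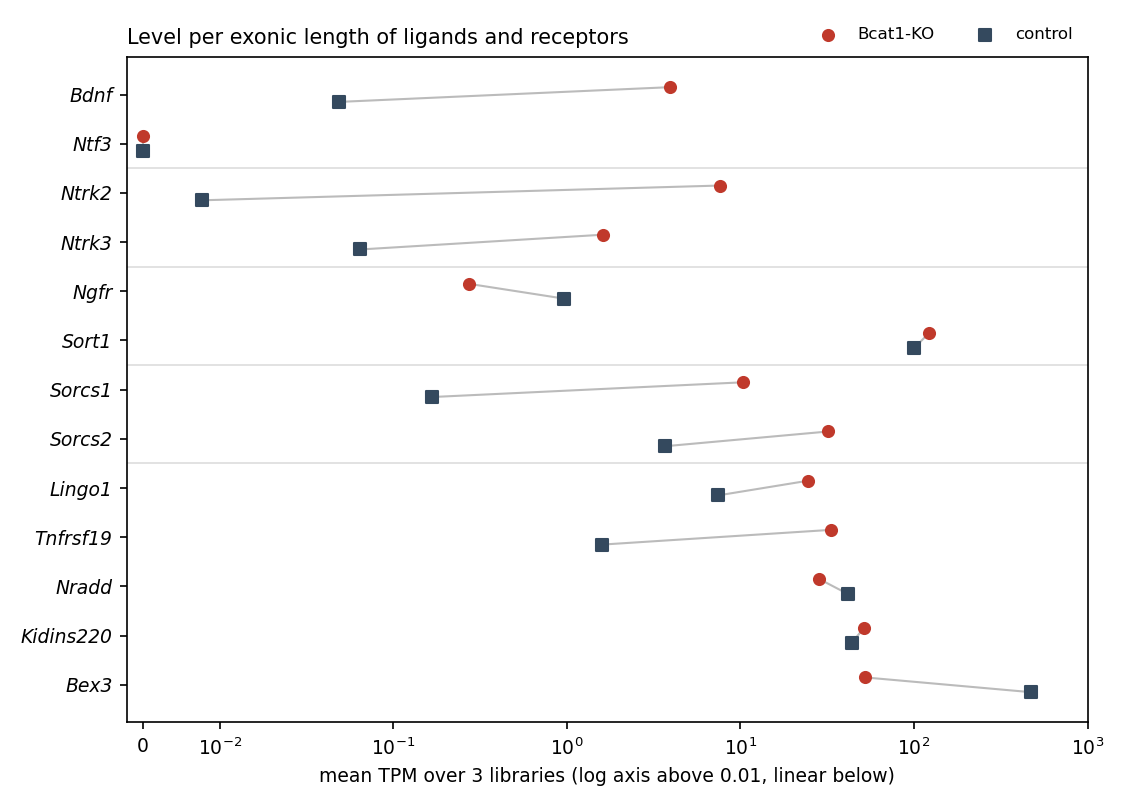
Mean TPM of the 6 genes and of the 7 tested related receptors and co-receptors over 3 Bcat1-KO libraries (circles) and 3 control libraries (squares), on an axis that is logarithmic above 0.01 and linear below. Bdnf, Ntrk2, Ntrk3, Sorcs1, Sorcs2 and Tnfrsf19 lie to the right in the knockout, Ngfr and Bex3 to the left, and Ntf3 at 0.

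Genes that mark other cell types or states moved in the same libraries. The summed level of 8 astrocyte markers was 1507 to 1559 CPM in the knockout, against 497 to 553 CPM in the control, with 6 higher and 0 lower, and that of 8 neuronal markers 410 to 455 CPM in the knockout, against 215 to 233 CPM in the control, with 3 higher and 1 lower. Most of the neuronal sum was Map2, at 391 ± 28.5 CPM in the knockout, against 168 ± 7.46 CPM in the control, so the sum follows that gene. Nefl had 0 reads, and Snap25 had 0.126 ± 0.0263 CPM in the knockout, against 0.0344 ± 0.0596 CPM in the control. The lower one, Rbfox3, which encodes the neuronal marker NeuN, had 0.0719 ± 0.0415 CPM in the knockout, against 33.1 ± 0.667 CPM in the control. For Ngfr, which neural crest, Schwann and some mesenchymal cells express, the 6 Schwann and neural crest markers summed to 25.5 to 29.4 CPM in the knockout, against 33.6 to 37.9 CPM in the control, with 1 higher, 1 lower and Foxd3 at 0. Most of that sum was Pmp22, at 24.2 ± 2.45 CPM in the knockout, against 32.3 ± 2.29 CPM in the control, while Cdh19 was 0.688 ± 0.181 CPM in the knockout, against 0.0316 ± 0.0302 CPM in the control. The 8 fibroblast and mural markers summed to 4.68 to 6.34 CPM in the knockout, against 26.4 to 28.9 CPM in the control, with 4 lower and with Col1a2, Lum and Rgs5 under 0.1 CPM. Col1a1 made up most of that sum, at 4.21 ± 0.973 CPM in the knockout, against 17.7 ± 0.783 CPM in the control. The 8 oligodendrocyte lineage markers summed to 380 to 423 CPM in the knockout, against 109 to 122 CPM in the control, with 2 higher and with Mag, Mbp, Mog and Sox10 under 0.1 CPM. Olig1 made up most of that sum, at 327 ± 16.8 CPM in the knockout, against 82.9 ± 6.73 CPM in the control. The 6 endothelial markers summed to 0.332 to 0.832 CPM in the knockout, against 0.826 to 0.994 CPM in the control, with 1 lower. The part of these shifts in the levels of Bdnf, Ntrk2, Ntrk3 and Ngfr was not tested.

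The nearest tested genes beside each locus lay up to 4618 kb away. They describe its surroundings, but cannot show whether a change was shared by a whole region. Of 60 neighbours, 5 tested genes on each side of each gene, 17 were higher and 20 lower, or 61.7% against the 62.3% of all tested genes. Beside Ntrk2, 0 of 10 neighbours were higher and 4 lower, and the median log2 fold change was -0.13, in a range of -1.18 to 0.22. The nearest ones were 395 kb and 316 kb away. Of these, Rmi1, which acts in DNA crossover repair, was lower (log2 fold change -0.43, adjusted p = 0.00165, edgeR), and Agtpbp1, a deglutamylase of tubulin, had a log2 fold change of 0.06 (adjusted p = 0.499, edgeR).

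Beside Bdnf, 6 of 10 neighbours were higher and 2 lower, and the median log2 fold change was 0.51. The changes were smaller than that of Bdnf. Lgr4, the gene of an R-spondin receptor 191 kb away, rose to 46.8 ± 1.41 CPM in the knockout, against 19.5 ± 0.447 CPM in the control (log2 fold change 1.26, adjusted p = 1.89e-08, edgeR). Mpped2 rose by a log2 fold change of 1.82 (adjusted p = 5.78e-08, edgeR) at a distance of 2806 kb, and the pseudogene Gm13910 by 2.77 (adjusted p = 0.00209, edgeR) from 8 control reads, or by 3.60 without control replicate 3 and 2.15 without control replicate 2. The secreted-protein gene Fibin was lower (log2 fold change -1.47, adjusted p = 0.0265, edgeR), a call lost in 5 of 13 alternatives and at -2.54 without Bcat1-KO replicate 3.

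Beside Ntrk3, 4 neighbours were higher and 4 lower, and the median log2 fold change was 0.16. Slco3a1, the gene of an organic anion transporter, rose to 3.73 ± 0.671 CPM in the knockout, against 0.150 ± 0.0366 CPM in the control (log2 fold change 4.61, adjusted p = 6.17e-08, edgeR), yet lies 3621 kb away, whereas the nearest gene, the mitochondrial ribosomal protein gene Mrpl46 at 37.2 kb, rose by 0.41 (adjusted p = 0.000455, edgeR). The unclassified transcript Gm45059 was lower (log2 fold change -1.05, adjusted p = 0.0259, edgeR), a call lost in 5 of 13 alternatives. Sort1 stood among 7 lower and 1 higher neighbours (median log2 fold change -0.39), including the gene 1700013F07Rik at -2.55 (adjusted p = 0.000123, edgeR). The neighbours of Ngfr were 3 higher and 1 lower (median 0.17), and those of the undetected Ntf3 3 higher and 2 lower (median 0.37), with the kinase gene Dyrk4 lower (log2 fold change -1.31, adjusted p = 0.00225, edgeR). Kif27, beside Ntrk2, was lower (log2 fold change -1.18, adjusted p = 0.0324, edgeR), a call lost in 6 of 13 alternatives and at -1.78 without Bcat1-KO replicate 3.

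**Figure D3:**
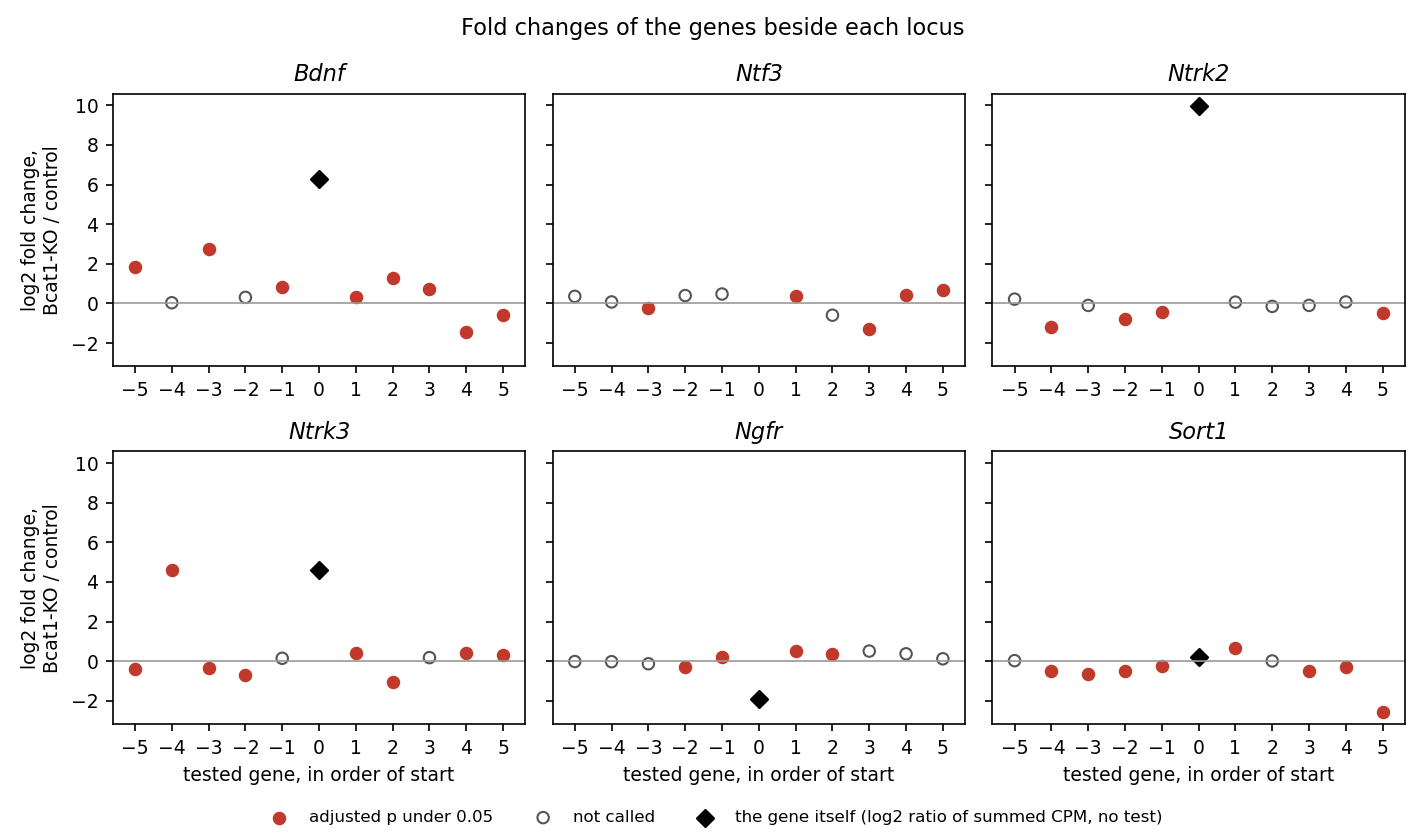
Log2 fold change, knockout over control, of the 5 tested genes on each side of each locus in order of start position (filled where the adjusted p was under 0.05). The diamond is the gene itself, as the log2 ratio of reads summed over libraries and corrected for summed depth, which the legend calls summed CPM. It reached 9.97 for Ntrk2 and 6.28 for Bdnf, above every neighbour. Ntf3 has no diamond because it had no reads.

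Reads on the opposite strand were few. In the knockout, forward-strand reads numbered 3 for Ntrk2, 8 for Bdnf, 10 for Ntrk3, 0 for Ngfr and 58 for Sort1. In the control they numbered 2 for Ngfr, 35 for Sort1 and 0 for Ntrk2, Bdnf and Ntrk3. The knockout share was 0.0842% of stranded reads for Ntrk2, 0.959% for Bdnf and 0.605% for Ntrk3. The deposited tables list antisense genes across 3 of the loci. Gm45346, opposite Bdnf, had 5 reads in the knockout, against 0 in the control, and Gm9885, opposite Ntrk3, had 40 in the knockout, against 0 in the control.

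Of 19 genes for cutting and releasing proneurotrophins, 10 were tested, 2 were higher and 6 lower (median log2 change -0.32), a share called of 80% against 62.3% of all tested genes. The convertase gene Pcsk5 had 10.4, 7.67 and 8.17 CPM in knockout libraries, against 0.0318, 0.0301 and 0.138 CPM in control libraries (log2 fold change 7.01, SE 0.33, adjusted p = 4.86e-09, edgeR), and 7.98 without control replicate 3, on 6 control reads. Pcsk6, a related convertase gene, rose to 113 ± 4.89 CPM in the knockout, against 15.5 ± 1.14 CPM in the control (log2 fold change 2.87, adjusted p = 4.32e-11, edgeR). Serpini1, the gene of the protease inhibitor neuroserpin, fell by 2.11 on the log2 scale (adjusted p = 1.19e-05, edgeR).

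Of 29 genes for signalling next to Trk receptors, 28 were tested, 9 were higher and 9 lower (median log2 change -0.08), a share called of 64.3% against the same 62.3%. Sirpa, a docking receptor for the phosphatase Shp2, rose to 63.1 ± 2.89 CPM in the knockout, against 12.6 ± 0.667 CPM in the control (log2 fold change 2.32, adjusted p = 2.35e-10, edgeR). The adaptor genes Shc4 and Gab2 rose by 2.04 and 1.49 (adjusted p = 1.21e-07 and 3.36e-08, edgeR), and the adaptor gene Dok5 fell by 2.33 on the log2 scale (adjusted p = 5.04e-09, edgeR), to 3.51 ± 0.238 CPM in the knockout, against 17.7 ± 0.475 CPM in the control. Of 18 genes of p75 processing and signalling, 16 were tested, 3 were higher and 9 lower (median log2 change -0.26), a share called of 75% against 62.3%. The log2 fold changes of the tested ones lay between -0.76 and 0.56. The sheddase gene Adam10 rose by 0.56 (adjusted p = 2.21e-05, edgeR), while Zfp369, Maged1 and Ripk2, whose products bind the p75 intracellular part, fell by 0.76, 0.53 and 0.46 on the log2 scale (adjusted p = 6.95e-06, 4.24e-05 and 0.00158, edgeR).

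Of 24 genes that BDNF is known to induce in neurons, 21 were tested, 7 were higher and 8 lower, and the median log2 fold change was -0.21. That is 71.4% called, against 62.3% of all tested genes, with 32% higher and 30.3% lower. The AP-1 factor genes Junb and Fos and the urokinase receptor gene Plaur fell by 2.39, 1.10 and 1.45 on the log2 scale (adjusted p = 1.37e-09, 5.01e-05 and 8.71e-06, edgeR). Klf10, a zinc finger repressor gene, rose by 0.93 (adjusted p = 3.28e-06, edgeR). Dusp4, Dusp5, Dusp6, Spry2, Spry4 and Homer1 were also higher, by log2 fold changes of 0.24 to 0.53 (adjusted p of 5.09e-05 to 0.0106, edgeR). The scarce Npas4 and Egr4 fell by 5.37 and 3.16 on the log2 scale (adjusted p = 1.66e-06 and 2.93e-06, edgeR), from 1.26 and 1.40 CPM in the control. Vgf, Fosb and Ier2 were lower as well, and Egr1, Egr2, Egr3, Atf3, Nr4a1 and Nr4a2 were not called.

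Of 22 transcriptional regulators of Bdnf or Ntrk2, 21 were tested, 5 were higher and 7 lower (median log2 change -0.07), a share called of 57.1%, near the 62.3% of all tested genes. Mef2c, a neuronal activity-responsive factor gene, had 51.6, 33.7 and 31.2 CPM in knockout libraries, against 3.69, 3.47 and 4.92 CPM in control libraries (log2 fold change 3.28, SE 0.20, adjusted p = 5.99e-08, edgeR), and knockout replicate 1 was its highest library. Rcor1, the CoREST subunit that works with the repressor REST, fell by 0.69 on the log2 scale (adjusted p = 4.31e-06, edgeR) and Hivep2 by 1.17 (adjusted p = 5.18e-06, edgeR), while Crem rose by 0.67 (adjusted p = 0.00164, edgeR). Rest itself was not called, at 59.0 ± 1.32 CPM in the knockout, against 63.8 ± 5.09 CPM in the control (log2 fold change -0.11, adjusted p = 0.192, edgeR). Of 24 other neurotrophic factor and receptor genes, 18 were tested, 5 were higher and 11 lower (median log2 change -0.48), a share called of 88.9% against 62.3%. Cntfr, the gene of the ciliary neurotrophic factor receptor, rose by 3.27 (adjusted p = 5.47e-08, edgeR). Clcf1, the gene of a cytokine that acts through this receptor, fell to 0.171 ± 0.0354 CPM in the knockout, against 8.66 ± 0.924 CPM in the control (log2 fold change -5.63, adjusted p = 9.85e-10, edgeR), and Gfra4, a co-receptor of the GDNF family, fell by 2.56 on the log2 scale (adjusted p = 3.89e-08, edgeR).

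**Figure D4:**
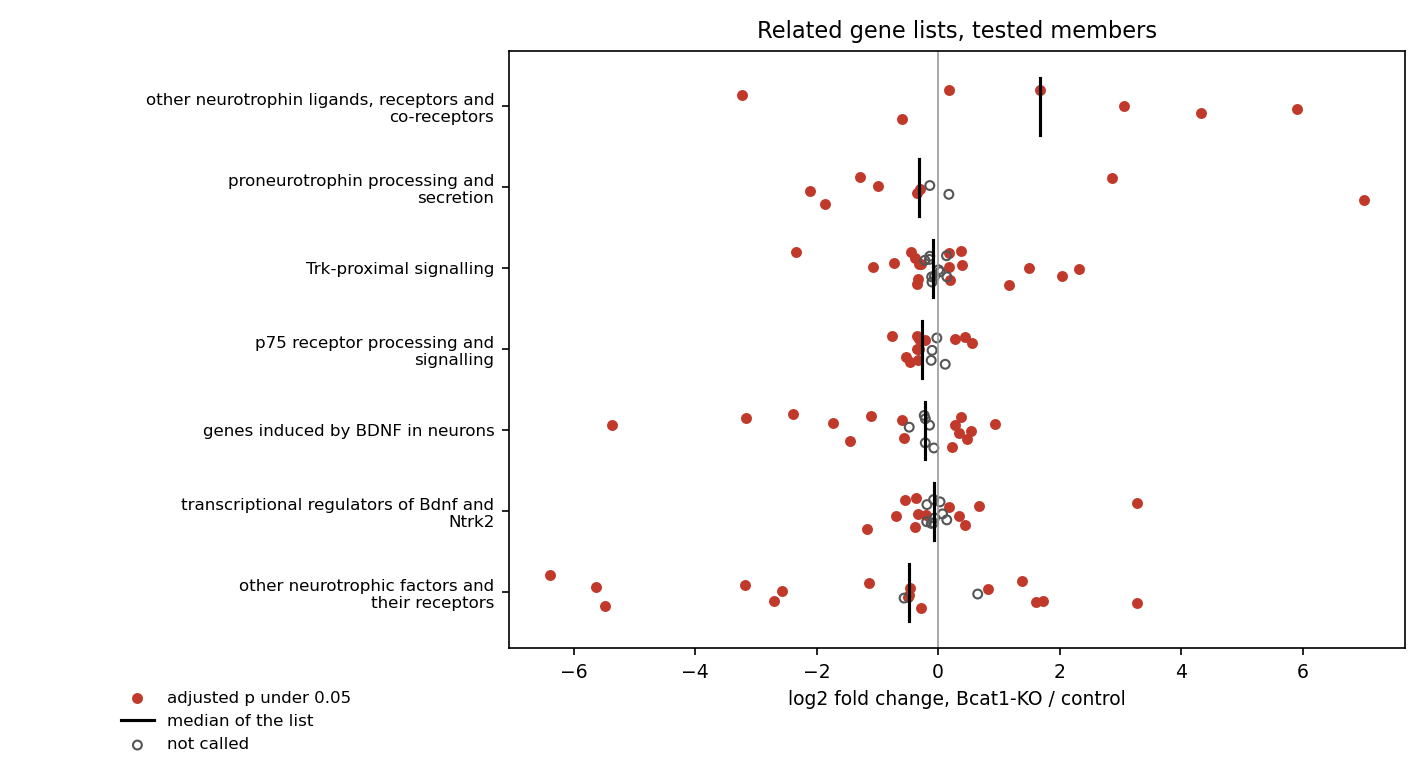
Log2 fold change, knockout over control, of the tested genes of 7 related lists (filled where the adjusted p was under 0.05; the vertical bar is the list's median, and vertical scatter within a list carries no value). Medians range from -0.48 for other neurotrophic factors to 1.68 for the other neurotrophin ligands, receptors and co-receptors, against 0.01 for all tested genes.

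The genes most like each of the 5 tested ones by the Euclidean distance between log2 CPM values over the 6 libraries are given as a description. The 3 nearest to Ntrk2 were Col4a5, Gria4 and Syt9, at distances of 1.36, 1.46 and 1.62, with 27.3 ± 2.24, 35.5 ± 4.01 and 28.2 ± 1.77 CPM in the knockout and under 0.1 CPM in the control. Bdnf was closest to Cadm2 and Adamts5, at 0.67 and 0.76, and then to Lipg at 1.02. Cadm2 had 7.59 ± 1.22 CPM in the knockout, against 0.115 ± 0.0783 CPM in the control. Ntrk3 was closest to Fam111a, Wipf1 and Slc1a2 (0.65, 0.67 and 0.94), Ngfr to Rcan2, Ror1 and Epha8 (0.68, 0.71 and 0.72), and Sort1 to Rnf10, Scaf11 and Ndufv1 (each 0.08).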

How the data were processed

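Stranded mRNA libraries were made from 3 Bcat1-KO and 3 control samples, per the labels' protocols. The submitters' processing notes name STAR 2.5.3a, featureCounts and mm10; which gene annotation was used is not stated there. The deposited counts are raw reads per gene, without regard to strand and for each strand, and 96.4% to 96.5% of stranded reads lay on the reverse strand, whose counts were tested. The deposited TPM values of that strand, which the authors scaled within each library, served for levels between genes and for an alternative with a pseudocount of 1.

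edgeR 4.0.16 kept 14020 of 49585 genes by filterByExpr; counts were scaled by TMM and fitted with the quasi-likelihood test, with no covariate and Benjamini-Hochberg adjustment at 0.05. CPM values carry the TMM scaling. Each SE is the absolute log2 fold change divided by the square root of the fit's F statistic. For the chosen genes it is a description and not a test. Gene types came from GENCODE M21 by stable ID (99.5% matched), start windows from RefSeq. Depth of 29543157 to 37800648 counts makes 3 reads worth 0.0780 to 0.103 CPM in a library; intervals cover counting error only. The 6 genes and the lists were chosen with earlier results of these data known. Up to 4 genes per list were named, those with the largest absolute fold change among called, non-overlapping genes whose mean log2 CPM was 0 or more, besides the genes of the first list, called neighbours with an absolute log2 fold change of at least 1, and the 3 nearest profiles per gene; Rmi1, Agtpbp1 and Mrpl46, as nearest neighbours, were named after their values were seen, as were the antisense genes. Alternatives were 2 other scalings, no filter, DESeq2 1.42.0, limma-trend (limma 3.58.1) on log2(TPM + 1), unstranded counts, a replicate block and leaving out each library. Some genes that this rule names are not reported here. The fit was tested on counts simulated with the same dispersion for all genes. It called 9 of 50 genes changed 1.25-fold, 43 of 50 changed 1.5-fold and 50 of 50 changed 2-fold. There were 13 false calls among 13574 genes. Far fewer genes were changed there than were called in these data, so it does not give the rate of false calls here. Replicates differed beyond counting noise (chi-square per gene 4.01 to 33.2), so none was counted as a duplicate. Analyses used R 4.3.3 and Python 3.11.15.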

Additional observations from a re-analysis of the deposited data

How the results depend on the processing

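Over 13 alternatives the counts of called genes in the 7 lists, among the neighbours and over all genes stayed within 1.5 times the main count, and the log2 fold changes of Ntrk2, Ntrk3, Bdnf, Ngfr and Sort1 kept their sign. The count over all genes was 8735, and 7734 to 9429 under the alternatives. Leaving out each library in turn gave 7734 to 9330 genes, and for the neighbours 29 to 36 against 37. The fitted log2 fold change was 2.21 to 7.16 for Bdnf, 3.09 to 10.71 for Ntrk2, 1.29 to 4.87 for Ntrk3, -2.14 to -0.62 for Ngfr and 0.18 to 0.28 for Sort1; the value nearest 0 for the first 4 came from log2(TPM + 1), whose pseudocount compresses low genes. Of 40 named related and neighbouring genes, 36 kept their call in all 13 alternatives, and 0 changed sign. With the replicate number as a block, 8662 genes were called in all. Deviations from the group mean had correlations of -0.05, -0.07 and 0.16 between samples of the same number. Not every library correlated best with the one of its own number. With 3 libraries per group, such values cannot decide whether samples of the same number were handled together. Single reads in the control limit the ratios of Ntrk2 and Bdnf, and Ngfr rests on 32 knockout reads.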
